A study of Mus musculus with 24 samples.

Results

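Potassium channels let potassium ions leave or enter a cell, and so set its resting potential and shape how often and how long it fires. Mouse potassium channel genes carry symbols made of Kcn, the letters of a subfamily and a number. Of 40836 gene symbols in a count table from mouse brain, 92 follow that pattern. The 80 that reached 1 CPM (counts times 1e6 over the column sum) in at least 8 of the 24 libraries are described here. The members were thus selected on their level in these same libraries, and the region difference described first is a description with no test. Just inside that limit, the eighth-highest library was at 1.11 CPM for Kcnq1, 1.65 for Kcnk5 and 2.02 for Kcnh8. Just outside it was at 0.482 CPM for Kcnk15, 0.472 for Kcnv2 and 0.457 for Kcnn4. The other 9 below the limit were Kcnj1, Kcne1, Kcnk18, Kcnk16, Kcna7, Kcne3, Kcna10, Kcnk7 and Kcnj15. All 80 members passed the filter on low counts and were among the 20437 genes tested, and 70 of them reached 1 CPM in every library.

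The libraries hold polyadenylated RNA from brain tissue, sequenced in bulk. Each is named by a code E3 or E4, then by a time code of 05, 10 or 15, then by a number from 1 to 4, giving 6 groups with 4 libraries in each. The titles also name a month from January to June. The labels state no strain, genotype, age, sex or treatment and do not spell out either code, while the series title names ApoE4, a form of the lipid carrier apolipoprotein E. The libraries are titled as biological replicates with no mention of separate animals, so p-values measure only the spread between these samples, which may be technical. Library totals had a median of 48.8 M counts (M, mega), the lowest being 37.4 M and the highest 99.5 M.

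The libraries differ in the part of the brain they hold, and this runs across the labelled groups. The 8 libraries whose column number in the table is a multiple of 3 are E3-05 2, E4-05 3, E3-10 1, E3-10 4, E4-10 2, E3-15 3, E4-15 1 and E4-15 4. They averaged 6.15 to 8.30 log2 CPM over 8 marker genes of cerebellar granule cells, against 0.96 to 3.65 in the other 16. The mean of 7 hindbrain and spinal markers, among them Hox genes, was 2.07 to 5.33 in the 8 and -3.56 to -1.87 in the 16. The mean of 8 markers of cortical excitatory neurons was 3.08 to 4.42 in the 8 and 4.82 to 7.16 in the 16. The 8 are called hindbrain-rich here; they were recognised as such from these same counts, and each E code holds 4 of them. Pan-neuronal markers averaged 9.27 to 9.54 log2 CPM in the 8 and 9.45 to 10.00 in the 16. In bulk tissue, fewer cells of a type and less RNA per cell cannot be told apart.

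Most potassium channels are built from pore subunits of a few families. Voltage-gated subunits (Kcna, Kcnb, Kcnc, Kcnd, Kcnh, Kcnq) open on depolarisation and repolarise the membrane after a spike. Electrically silent subunits (Kcnf, Kcng, Kcns, Kcnv) form no channel alone and change the properties of Kcnb channels they join. Auxiliary subunits (Kcnab, Kcne, Kcnip) modify voltage-gated pores. Inward rectifiers (Kcnj) pass current best near rest, two-pore-domain channels (Kcnk) give a standing leak, and Kcnma, Kcnn and Kcnt channels open with internal calcium or sodium.

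All 8 hindbrain-rich libraries lay above all 16 others for 10 of the 80 members (12.5%) and below all 16 for 19 (23.8%), while the 2 sets overlapped for 51. Among the 19, Kcnh4 reached 1 CPM in 0 of the 8 and in all 16 others. It was thus a member only through the set where it was high. A gene high only in the 8 must reach 1 CPM in all 8, and one high only in the 16 in just 8 of them. Over all 20437 genes tested, 5.97% lay wholly above and 7.72% wholly below. Among the 15353 genes that also reached 1 CPM in 8 columns, these shares were 7.09% and 9.84%. The median log2 difference (hindbrain-rich minus other) was -0.18 over the members and 0.04 over all genes tested. A difference of at least 2-fold was seen in the positive direction for 10 members (12.5%) and in the negative direction for 24 (30.0%). Over all 20437 genes tested these shares were 9.10% and 9.46%, and among the 15353 genes at 1 CPM in 8 columns 5.43% and 7.65%. The classes differed in their balance: 5 of 9 silent subunits and 9 of 28 voltage-gated pore subunits lay wholly below, and 4 of 10 two-pore-domain channels lay wholly above. Within the 8 sets of 3 adjacent columns, each of which holds 1 hindbrain-rich library, that library was above both others in every set for 13 members and below both in every set for 24. These 2 counts were not made over all genes, so they are not read as particular to the members.

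**Figure D1:**
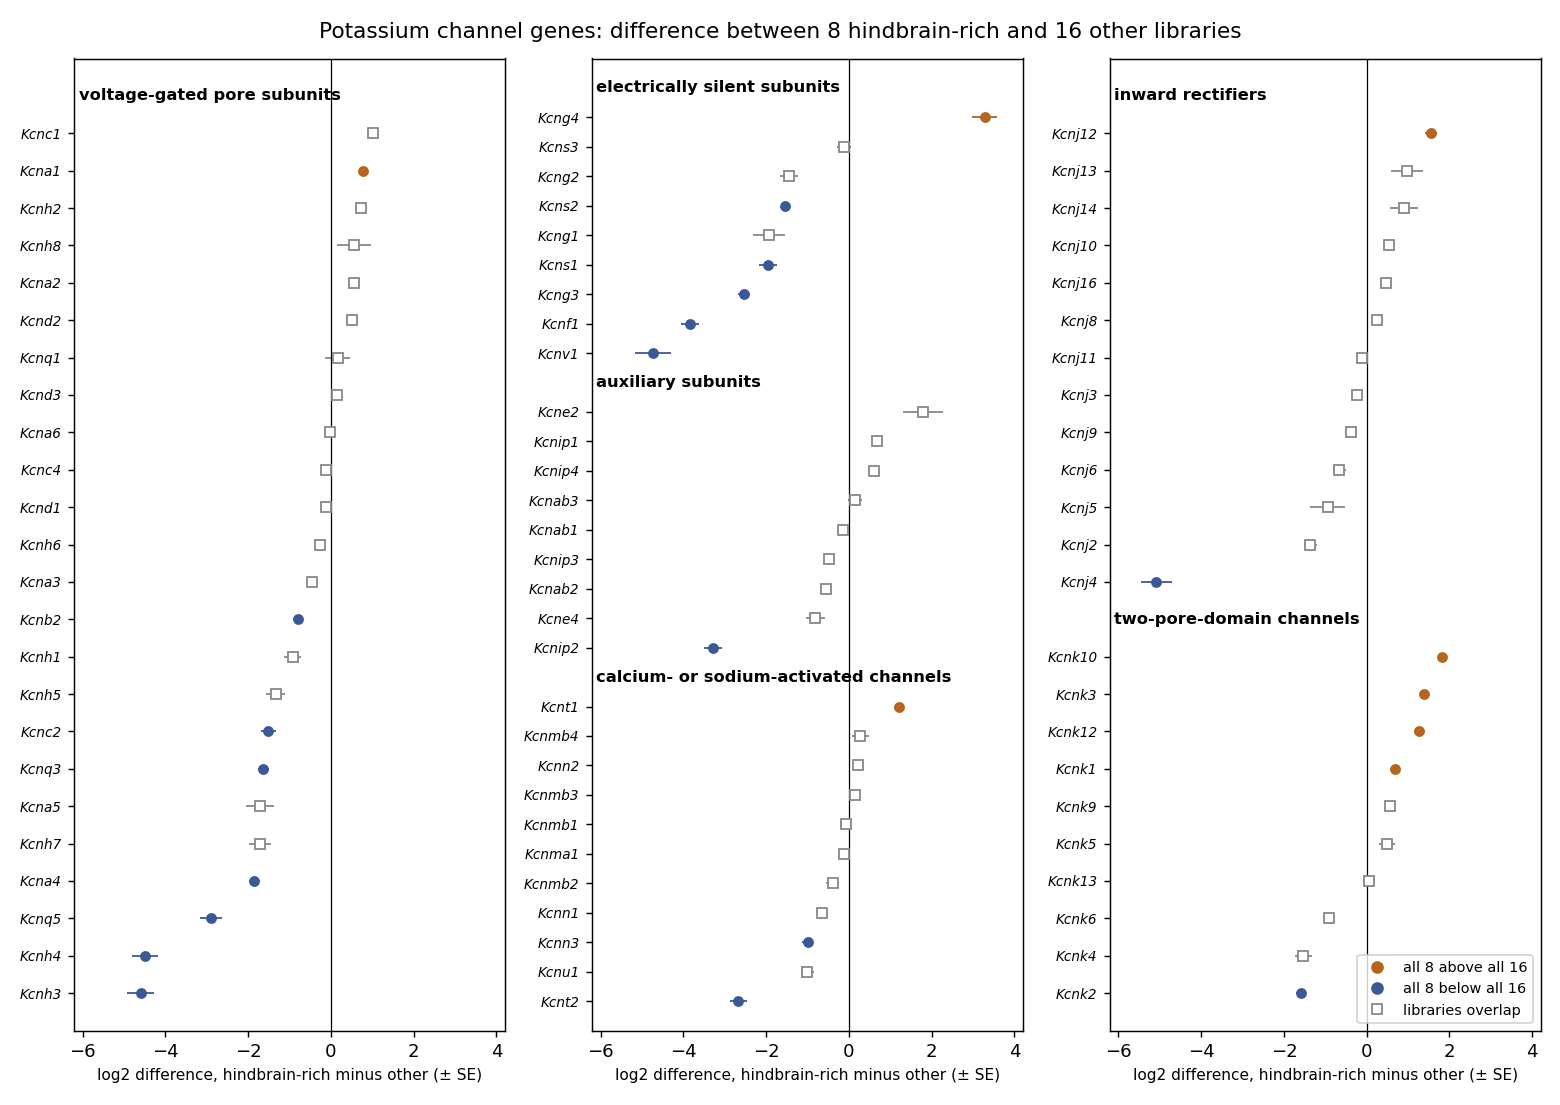
Log2 difference in CPM between the 8 hindbrain-rich and the 16 other libraries for 76 of the members, by class (horizontal axis; bars, standard error of the edgeR fit; filled circles, all 8 libraries above or below all 16; open squares, overlap). Silent subunits lie mostly left of 0, from -4.73 for Kcnv1, with Kcng4 alone at 3.28 on the right.

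The 250 bases before the transcription start are shown for the 2 members furthest in each direction that lie wholly above or below and have a single start in the RefSeq promoter table (build GRCm38.p6; the counts were made on another build). Kcng4 (chr8:119635681-119635930, minus strand) and Kcnj12 (chr11:61065554-61065803, plus strand) were higher in the hindbrain-rich libraries, and Kcnj4 (chr15:79505242-79505491, minus strand) and Kcnh4 (chr11:100759779-100760028, minus strand) were lower. Each runs 5′ to 3′ towards the start, and capitals mark the GC box GGGCGG on either strand, of which neighbouring matches can touch.
Kcng4: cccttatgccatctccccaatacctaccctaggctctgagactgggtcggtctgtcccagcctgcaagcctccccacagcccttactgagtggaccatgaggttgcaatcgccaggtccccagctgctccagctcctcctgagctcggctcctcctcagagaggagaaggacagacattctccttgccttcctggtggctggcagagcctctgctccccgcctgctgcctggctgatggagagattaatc
Kcnj12: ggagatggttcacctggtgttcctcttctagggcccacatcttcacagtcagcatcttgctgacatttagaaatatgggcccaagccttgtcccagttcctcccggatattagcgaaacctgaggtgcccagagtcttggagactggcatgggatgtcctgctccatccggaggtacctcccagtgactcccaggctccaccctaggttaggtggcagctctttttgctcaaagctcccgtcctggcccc
Kcnj4: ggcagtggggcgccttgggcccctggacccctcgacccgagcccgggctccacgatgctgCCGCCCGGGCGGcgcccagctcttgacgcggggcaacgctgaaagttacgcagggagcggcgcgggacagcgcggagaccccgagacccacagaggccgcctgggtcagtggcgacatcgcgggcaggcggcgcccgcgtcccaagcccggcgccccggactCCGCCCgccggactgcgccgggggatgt
Kcnh4: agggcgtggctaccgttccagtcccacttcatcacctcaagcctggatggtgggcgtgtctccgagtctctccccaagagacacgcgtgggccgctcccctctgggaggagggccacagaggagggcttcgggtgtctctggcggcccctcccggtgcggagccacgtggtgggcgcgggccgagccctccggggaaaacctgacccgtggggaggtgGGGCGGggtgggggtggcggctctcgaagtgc
Kcnj4 holds 3 GC boxes and Kcnh4 holds 1, while Kcng4 and Kcnj12 hold 0. The dinucleotide CG occurs 35 times before Kcnj4 and 20 times before Kcnh4, against 4 times before each of Kcng4 and Kcnj12. G and C make up 77.2% of the Kcnj4 window, 70.8% of Kcnh4, 60.4% of Kcng4 and 56.0% of Kcnj12. The dinucleotide was counted in these 4 windows only, and GC content was not split by direction. Neither is therefore read as a trait of the members wholly above or below. The GC box was found in 2 of 6 promoters of members wholly above, 8 of 19 of those wholly below and 27 of 56 of those that overlap. The table matched 57 of the 80 members with 81 promoters, of which 37 (45.7%) hold the GC box, against 32.7% of all 32851 promoters in it. The E box CAGCTG was in 24.7% of the members' promoters and 13.0% of all, and the TATA box TATAAA in 3.70% and 12.4%, both searched on both strands. The median GC content was 58.8% in the members' promoters and 52.4% in all. Members had to reach 1 CPM in 8 libraries, whereas all promoters were taken whatever the level of their gene, and a gene can have several promoters. The part of this in these shares was not tested. A match is a description of letters, not of a bound factor.

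The Kcnc genes, whose channels close fast enough for neurons to fire at high rates, split by region. Kcnc1, found in fast-spiking neurons, was at 409 to 707 CPM (median 563) in the 8 hindbrain-rich libraries and at 196 to 414 CPM (median 268) in the other 16, a log2 difference of 1.01 (SE 0.11). Its sets overlapped only through E3-10 1 at 409 CPM and E4-05 4 at 414 CPM. Kcnc2, found in cortical and striatal interneurons, went the other way, from 42.2 to 85.2 CPM (median 49.0) in the 8 and from 101 to 265 CPM (median 161) in the 16 (log2 difference -1.51, SE 0.18). It was highest in E4-05 4 (265 CPM) and E3-10 3 (225 CPM). Of the 16, these libraries had the highest means of thalamic markers (7.20 and 6.94 log2 CPM) and the lowest of GABA interneuron markers (6.07 and 6.13). The part of this was not tested. Kcnc4 was nearly level, with 87.8 to 103 CPM in the 8 and 88.7 to 122 CPM in the 16 (-0.11, SE 0.06).

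**Figure D2:**
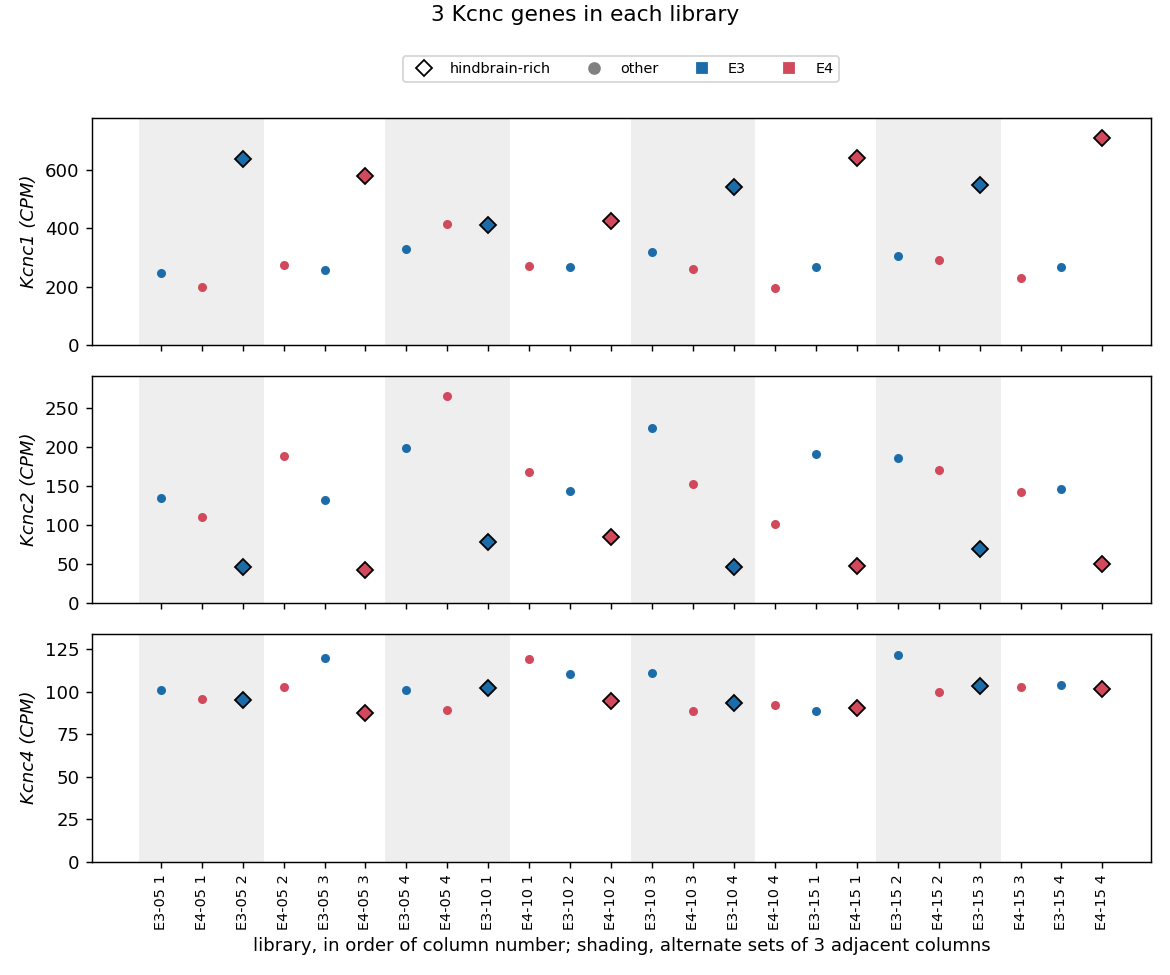
CPM of Kcnc1, Kcnc2 and Kcnc4 (vertical axes, from 0) in the 24 libraries in the order of their columns; diamonds are hindbrain-rich libraries, circles the others, blue E3 and red E4, and shading marks alternate sets of 3 adjacent columns. Every diamond is below its 2 neighbours for Kcnc2, and 7 of 8 are above theirs for Kcnc1, while Kcnc4 stays between 87.8 and 122 CPM.

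The axonal subunits Kcna1 and Kcna2 had positive differences, while Kcna4 and Kcnb2 were lower. Kcna1, which clusters beside the nodes of myelinated axons and is mutated in episodic ataxia, was at 458 to 767 CPM (median 488) in the 8. It was at 218 to 410 CPM (median 308) in the 16, without overlap (log2 difference 0.79, SE 0.11). Kcna2, its usual partner in axons, was at 490 to 702 CPM against 266 to 537 CPM, with overlap (0.55, SE 0.11). The oligodendrocyte markers averaged 9.08 to 10.21 log2 CPM in the 8 and 8.65 to 9.94 in the 16, and their part in these values was not tested. Kcna4, which gives a fast inactivating current, was lower, at 9.21 to 20.0 CPM against 41.1 to 64.6 CPM (-1.87, SE 0.12). Kcna6 was the member of this subfamily nearest to no difference, with 135 to 189 CPM against 130 to 198 CPM (-0.01, SE 0.07). Kcnb2, a delayed rectifier, was at 14.4 to 28.1 CPM (median 19.5) in the 8 and at 28.5 to 42.4 CPM (median 35.9) in the 16 (-0.80, SE 0.11). Its sets came close but did not overlap. The Kcnd genes, whose channels carry the somatodendritic A-type current, overlapped throughout, from 0.51 (SE 0.10) for Kcnd2 to -0.12 (SE 0.12) for Kcnd1.

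Members of the Kcnh and Kcnq subfamilies held some of the largest negative differences. Kcnh3, a forebrain subunit active below spike threshold, was at 2.62 to 13.3 CPM (median 3.83) in the 8 and at 39.8 to 187 CPM (median 112) in the 16 (log2 difference -4.60, SE 0.33). Its relative Kcnh4, a member only through the 16, was at 0.348 to 0.757 CPM (median 0.543) and 5.08 to 23.8 CPM (median 11.7), a difference of -4.49 (SE 0.32). Neither gene overlapped between the sets. Kcnh8 of the same branch overlapped, at 0.598 to 5.55 CPM against 0.579 to 4.98 CPM (0.55, SE 0.41). Kcnh2, known for the cardiac repolarising current, was at 83.2 to 188 CPM in the 8 and 47.8 to 108 CPM in the 16 (0.72, SE 0.14), with overlap. Kcnh6 was near level (-0.27, SE 0.10). Kcnq3 and Kcnq5 belong to channels of the M-current, which muscarinic receptors close. Kcnq3 was at 61.2 to 140 CPM against 198 to 365 CPM (-1.63, SE 0.14). Kcnq5 was further apart still, at 8.37 to 30.9 CPM against 45.7 to 180 CPM (-2.90, SE 0.27). Kcnq1 was at 0.524 to 1.62 CPM against 0.217 to 1.63 CPM (0.16, SE 0.30); it shares its locus with an antisense RNA, and the strand setting of the counting is not given in the sources used here.

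Among the silent subunits, Kcng4 stood opposite to the rest. It was at 122 to 200 CPM (median 183) in the 8 and at 4.69 to 55.1 CPM (median 15.2) in the 16, a log2 difference of 3.28 (SE 0.30), or 9.72-fold. The 8 were close together, whereas the 16 spanned 11.8-fold, with E4-05 4 at 55.1 CPM highest and E4-05 1 at 4.69 CPM lowest. Kcnv1 was at 1.35 to 7.73 CPM (median 2.93) in the 8 and 22.0 to 163 CPM (median 85) in the 16 (-4.73, SE 0.43). Kcnf1 was at 5.43 to 19.7 CPM (median 7.45) and 72.6 to 170 CPM (median 138), a difference of -3.83 (SE 0.22). Neither gene had a hindbrain-rich library within the range of the others. Kcng3 (-2.53, SE 0.14), Kcns1 (-1.96, SE 0.22) and Kcns2 (-1.54, SE 0.10) also lay wholly below. Kcng1 (-1.93, SE 0.39) was below both neighbours in 7 of the 8 sets of 3 columns, but E3-10 1 was at 39.0 CPM while the other hindbrain-rich libraries were at 2.41 to 13.6 CPM. Kcns3 overlapped and was nearest to level (-0.11, SE 0.17).

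**Figure D3:**
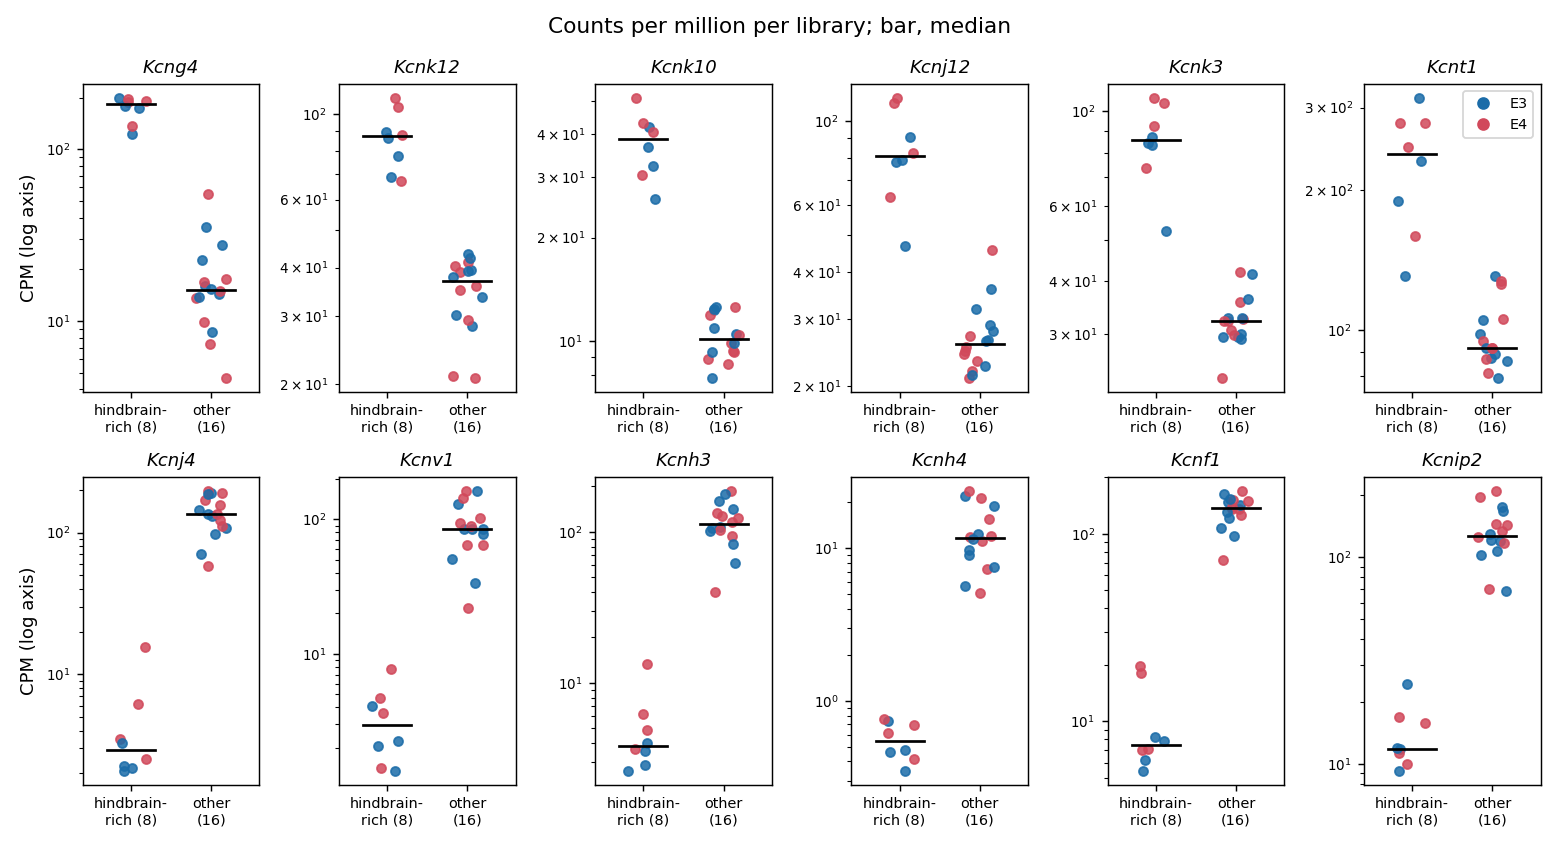
CPM per library (vertical axes, logarithmic) of 6 members wholly above and 6 wholly below in the 8 hindbrain-rich against the 16 other libraries; blue points are E3, red points E4, and bars are medians. The upper row separates narrowly for Kcnt1 (131.0 against 130.7 CPM) and widely for Kcng4, and no panel has points of one set within the range of the other.

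The auxiliary subunits mostly overlapped, and 1 of 9 lay wholly below. Kcnip2, a calcium-binding partner of Kcnd channels, was at 9.27 to 24.4 CPM (median 11.9) in the 8 and 68.9 to 209 CPM (median 127) in the 16 (log2 difference -3.28, SE 0.22). Its relatives Kcnip1 (0.68, SE 0.10) and Kcnip4 (0.62, SE 0.11) had positive differences with overlap. Kcnip3 had a smaller negative one (-0.47, SE 0.07), also with overlap. Kcnab1, a cytoplasmic subunit of Kcna channels, was level at 129 to 166 CPM against 122 to 291 CPM (-0.14, SE 0.13). Kcnab2 was at 280 to 683 CPM in the 8, where E3-10 1 held the 683 CPM, and at 381 to 671 CPM in the 16 (-0.56, SE 0.12). Kcne4 was low in both sets, at 0.796 to 1.97 CPM against 1.36 to 4.55 CPM (-0.81, SE 0.23).

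Kcne2 and the inward rectifier Kcnj13, both known from the epithelium of the choroid plexus, varied with the choroid plexus markers across the libraries. Kcne2 was at 4.09 to 30.6 CPM (median 12.4) in the 8 and at 0.132 to 6.95 CPM (median 4.29) in the 16 (1.80, SE 0.48). Kcnj13 was at 8.60 to 45.9 CPM (median 25.1) and 1.67 to 20.8 CPM (median 14.1), a difference of 0.97 (SE 0.38). Both were highest in E4-05 3, where the 6 choroid plexus markers also had their highest mean, 6.35 log2 CPM. At the other end, E4-10 3 had the lowest mean of these markers (0.77), with 0.372 CPM of Kcne2 and 1.67 CPM of Kcnj13. In E4-05 1 the marker mean was 1.46, with 0.132 CPM of Kcne2 and 2.88 CPM of Kcnj13. E4-10 2, the hindbrain-rich library with the lowest marker mean (3.85), was also the lowest of the 8 for both genes, at 4.09 and 8.60 CPM. The marker mean was 3.85 to 6.35 in the 8 and 0.77 to 5.06 in the 16, and its part in the region difference of these genes was not tested.

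**Figure D4:**
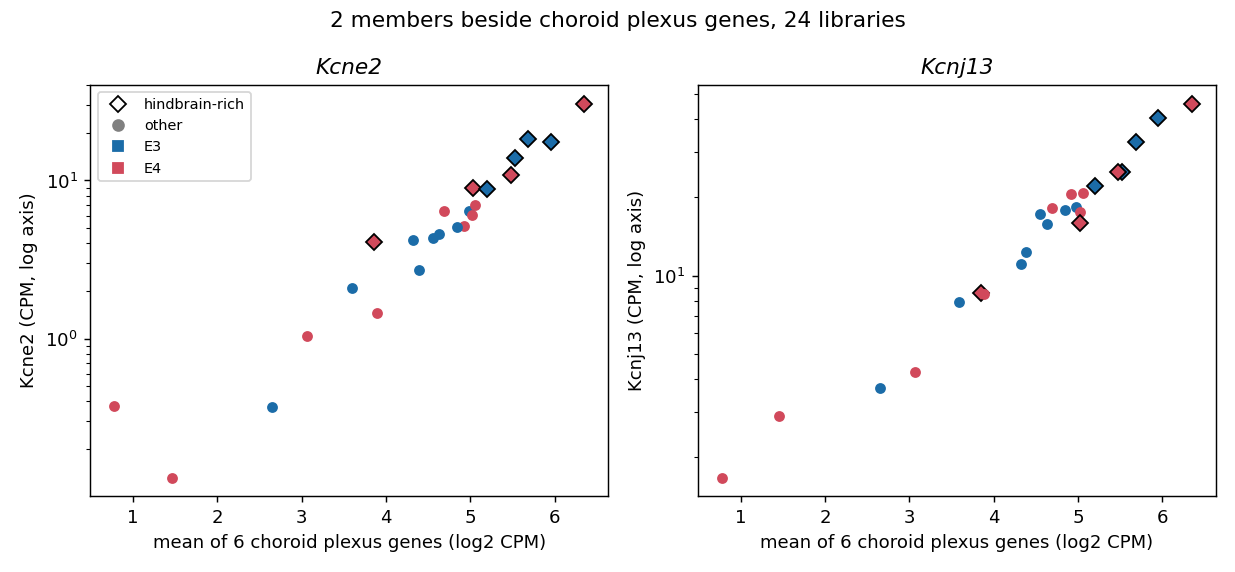
CPM of Kcne2 and Kcnj13 (vertical axes, logarithmic) against the mean log2 CPM of 6 choroid plexus genes (horizontal axis) in the 24 libraries; diamonds are hindbrain-rich, circles other libraries, blue E3 and red E4. Both genes are highest in the library with the highest marker mean (6.35) and low where it is under 2.

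The strongly rectifying Kcnj genes, which hold neurons near rest, divided among themselves. Kcnj4 had the largest negative difference of all 80 members: it was at 2.09 to 15.5 CPM (median 2.90) in the 8 and at 58.2 to 197 CPM (median 136) in the 16. The log2 difference was -5.08 (SE 0.37), or 33.9-fold lower. Kcnj12 of the same group was at 46.7 to 115 CPM (median 80.9) in the 8 and 21.1 to 45.7 CPM (median 25.8) in the 16, a difference of 1.56 (SE 0.14). Kcnj2 was at 6.69 to 11.1 CPM against 11.1 to 37 CPM (-1.36, SE 0.16), where the 11.1 CPM of E4-10 2 met the 11.1 CPM of E3-15 2. Kcnj14 was at 0.505 to 13.6 CPM against 1.13 to 3.39 CPM (0.90, SE 0.34), with E3-10 1 at 13.6 CPM.

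The astrocyte, vessel and receptor-gated rectifiers overlapped between the sets. Kcnj10, through which astrocytes take up potassium, was at 433 to 832 CPM (median 525) in the 8 and 254 to 622 CPM (median 344) in the 16 (0.54, SE 0.13), with overlap. The 6 astrocyte markers averaged 8.32 to 8.60 log2 CPM in the 8 and 7.82 to 8.46 in the 16, and their part in this difference was not tested. Kcnj16, which joins Kcnj10 channels, was at 34.5 to 56.1 CPM against 22.0 to 39.6 CPM (0.46, SE 0.09), and was above both neighbouring columns in all 8 sets. Kcnj8, the ATP-sensitive subunit of pericytes and smooth muscle, was at 4.05 to 6.93 CPM against 3.39 to 6.56 CPM (0.25, SE 0.12); the mural markers averaged 5.45 to 6.01 and 5.46 to 6.20 log2 CPM. Kcnj11, the ATP-sensitive subunit of neurons and beta cells, was level (-0.11, SE 0.07). The subunits opened by G proteins had negative differences with overlap, from -0.23 (SE 0.11) for Kcnj3 and -0.39 (SE 0.13) for Kcnj9 to -0.67 (SE 0.16) for Kcnj6 and -0.95 (SE 0.42) for Kcnj5.

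The two-pore-domain class had a median difference of 0.53, the highest of the 6 classes. Kcnk10, a leak channel opened by stretch and lipids, was at 25.9 to 51.1 CPM (median 38.7) in the 8 and at 7.84 to 12.6 CPM (median 10.2) in the 16 (1.83, SE 0.11). Kcnk2, its close relative, lay wholly below at 21.4 to 34.7 CPM (median 25) against 54.8 to 125 CPM (median 75.6), a difference of -1.59 (SE 0.12). Kcnk4, the third of that group, was at 3.36 to 6.91 CPM against 4.29 to 17.4 CPM (-1.53, SE 0.21). So Kcnk10 alone of these 3 was higher in the hindbrain-rich libraries. The acid-sensitive Kcnk3, found in motor neurons and granule cells, was at 52.3 to 108 CPM against 23.7 to 42.1 CPM (1.37, SE 0.10). Kcnk9, its partner, was at 121 to 203 CPM against 85.8 to 126 CPM (0.57, SE 0.08), with overlap but above both neighbours in all 8 sets. Kcnk12 (1.27, SE 0.13) and Kcnk1 (0.69, SE 0.08) lay wholly above. Kcnk13, known from microglia, was level at 9.86 to 24.8 CPM against 9.68 to 20.9 CPM (0.06, SE 0.14). The microglia markers averaged 4.31 to 4.93 log2 CPM in the 8 and 5.28 to 5.84 in the 16.

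The sodium-activated pair differed in direction. Kcnt1 was at 131 to 315 CPM (median 239) in the 8 and 79.2 to 131 CPM (median 91.7) in the 16 (1.22, SE 0.12). It cleared the others only just, with E3-10 1 at 131.0 CPM and E3-05 1 at 130.7 CPM. Kcnt2 was at 2.95 to 6.03 CPM (median 3.92) against 12.7 to 47.4 CPM (median 26.9), a difference of -2.68 (SE 0.21). Kcnma1, the large-conductance calcium-activated pore, overlapped at 169 to 381 CPM against 246 to 414 CPM (-0.13, SE 0.11), and its subunit genes Kcnmb1, Kcnmb2, Kcnmb3 and Kcnmb4 ran from -0.39 to 0.27. Of the small-conductance calcium-activated genes, Kcnn3 lay wholly below (-0.998, SE 0.13), Kcnn1 overlapped (-0.65, SE 0.11) and Kcnn2 had a small positive difference (0.22, SE 0.10). Kcnu1, known from sperm, was at 0.876 to 2.47 CPM against 1.98 to 3.84 CPM (-1.004, SE 0.16).

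Libraries of one set were not alike, and a few held most of the extremes. Of the 80 members, 51 had their highest or lowest hindbrain-rich value in E3-10 1, 36 of them the highest. That library had the highest hindbrain and spinal mean (5.33), the lowest granule cell mean (6.15) and the highest oligodendrocyte mean (10.21) of the 8. It held 767 CPM of Kcna1, 832 of Kcnj10, 39.0 of Kcng1 and 15.4 of Kcns3. Without it, 13 members lay wholly above and 26 wholly below, against 10 and 19 with it. Fewer libraries make overlap less likely for any gene. E4-15 4 was extreme for 30 members, with the highest Kcnj4, Kcnh3, Kcnv1 and Kcnf1 of the 8 (15.5, 13.3, 7.73 and 19.7 CPM) and the highest cortical mean (4.42). Among the 16, E4-05 4 was extreme for 37 members, 20 highest and 17 lowest. It had the highest thalamic mean (7.20) and the lowest cortical mean (4.82) of the 16, with the lowest Kcnj4 (58.2 CPM), Kcnh3 (39.8), Kcnv1 (22.0) and Kcnf1 (72.6) and the highest Kcng4 (55.1) and Kcnc2 (265). E4-10 3 held the highest Kcnj4 (197 CPM), Kcnh3 (187), Kcnh4 (23.8) and Kcnip2 (209) of the 16, with a striatal mean of 7.81 and a cortical mean of 6.96. The part of these tissue differences in the members' values was not tested. Counts of extremes are not given over all genes, so they describe the libraries and are not read as a trait of the members.

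No potassium channel gene passed the test between E codes or time codes. Comparisons used edgeR's quasi-likelihood F test with Benjamini-Hochberg adjustment over all 20437 genes and a term for the hindbrain-rich libraries. For E4 minus E3 averaged over time codes, 0 of 80 members were called (0% of all genes) and 1 (1.25%) had an unadjusted p under 0.05, against 2.73% of all genes. At time code 05 the counts were 0 called (0% of all genes) and 0 unadjusted (2.69% of all genes). At time code 10 they were 0 (0.00979% of all genes) and 4 (5.00%, against 5.01% of all genes). At time code 15 they were 0 (0%) and 1 (1.25%, against 1.91%). For time codes averaged over E codes, 0 members were called in 10 minus 05 (0% of all genes), in 15 minus 10 (0.00489%) and in 15 minus 05 (0.0538%), with 1, 3 and 0 at an unadjusted p under 0.05. The shares of all genes at that p were 4.03%, 7.72% and 4.56%. DESeq2 and limma-voom also called 0 members in each of these comparisons, with 0 to 6 members at an unadjusted p under 0.05. The median difference over the 80 members lay between -0.07 and 0.05 in these 7 comparisons, and the median standard error of a member was 0.13 for the averaged E4 minus E3 and 0.22 at each time code. These p-values miss the threshold and do not show that levels were the same.

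The members with the smallest p had these values. Kcns3, a silent subunit of the Kcnb channels, had a log2 difference of -0.45 (E4 minus E3 averaged over time codes, SE 0.15, adjusted p = 1.00 with edgeR). At time code 15 its 4 E4 libraries were at 3.96, 5.12, 5.41 and 5.82 CPM and its 4 E3 libraries at 6.80, 8.39, 9.17 and 9.57 CPM. The groups did not overlap there (-0.72, SE 0.27, adjusted p = 1.00 with edgeR). The hindbrain-rich libraries among them were E4-15 1 (3.96 CPM), E4-15 4 (5.12 CPM) and E3-15 3 (9.17 CPM). How many of all genes lack overlap there was not counted, so this is not read as a result about Kcns3. Kcnk2 at time code 10 was at 77.5, 107 and 125 CPM in the 3 E4 libraries that are not hindbrain-rich and 57.5 and 73.6 CPM in the 2 such E3 libraries. In the hindbrain-rich ones it was at 34.7 CPM in E4 and at 22.7 and 24.1 CPM in E3. E4 was thus the higher in each region set (0.61, SE 0.18, adjusted p = 0.622 with edgeR, and between 0.192 with DESeq2 and 0.999 over the alternatives tried). E4-10 3 and E4-10 4 also had the highest striatal means of time code 10 (7.81 and 8.19), and the part of this was not tested. At the same time code Kcnf1 had a difference of 0.64 (SE 0.29), which was 0.32 without E4-10 2. Kcnj10 had one of -0.46 (SE 0.22) and Kcnn2 one of -0.35 (SE 0.17).

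Across time codes, Kcng3, another silent subunit, had log2 differences of 0.45 (SE 0.14) for 10 minus 05 and -0.33 (SE 0.14) for 15 minus 10, with adjusted p = 0.999 and 0.609 in edgeR. In the libraries that are not hindbrain-rich it was at 9.10 to 16.6 CPM at 05, 9.75 to 23.4 CPM at 10 and 9.83 to 15.0 CPM at 15, so the time codes overlapped. Kcnj2 had a log2 difference of -0.41 (SE 0.17) and Kcnip4 one of 0.25 (SE 0.12) for 15 minus 10, with adjusted p = 0.609 and 0.643 in edgeR. The Kcnip4 difference was 0.15 without E3-10 1. Each titled month belongs to a single time code, so month and time code cannot be told apart.

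Within the hindbrain-rich libraries, 4 E4 libraries were compared with 4 E3 libraries. The fit held all 24 libraries, so its spread and time terms were shared with the other 16. Again 0 members were called (0% of all genes), and 12 (15.0%) had an unadjusted p under 0.05, against 6.88% of all genes. Of these 12, 3 were higher in E4 and 9 lower, and 1 had groups that did not overlap. That 1 was Kcnj16, at 34.5, 35.8, 37.1 and 42.3 CPM in E4 and 43.9, 44.7, 46.3 and 56.1 CPM in E3 (log2 difference -0.32, SE 0.15). The share of all genes without overlap is not given, so this 1 is not read as a result about the members. Kcnj4 was at 2.52, 3.47, 6.21 and 15.5 CPM in E4 and 2.09, 2.18, 2.26 and 3.28 CPM in E3. Its difference was 1.44 (SE 0.46, adjusted p = 0.639 with edgeR), and 0.76 without E4-15 4, the library with the highest cortical mean of the 8. Kcnf1 was at 7.03, 7.08, 18.2 and 19.7 CPM in E4 and 5.43, 6.21, 7.83 and 8.26 CPM in E3 (0.90, SE 0.28, adjusted p = 0.639 with edgeR). Kcnj14, a rectifier of brainstem motor nuclei, was at 0.505, 1.14, 2.84 and 4.70 CPM in E4 and 1.89, 3.58, 7.46 and 13.6 CPM in E3 (-1.53, SE 0.50, adjusted p = 0.639 with edgeR). Kcnk9 was at 121, 131, 136 and 152 CPM in E4 and 147, 167, 179 and 203 CPM in E3 (-0.34, SE 0.11, adjusted p = 0.639 with edgeR). These differences also moved when 1 library was left out. That of Kcnf1 was 0.62 without E4-10 2, and without E3-10 1 that of Kcnj14 was -1.06 and that of Kcnk9 -0.27. The hindbrain and spinal mean was 2.07 to 3.12 in the 4 E4 libraries and 2.69 to 5.33 in the 4 E3 libraries, and the granule cell mean 7.21 to 8.30 and 6.15 to 8.03. The part of this in the members' values was not tested.

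In the other 16 libraries, 8 of each E code, 0 members were called (0% of all genes) and 1 (1.25%) had an unadjusted p under 0.05, against 1.64% of all genes. That was Kcnj8, at a difference of -0.27 (SE 0.12). The difference of the E4 minus E3 effect between the region sets also gave 0 members (0% of all genes), with 7 (8.75%) at an unadjusted p under 0.05, against 4.69% of all genes. It was 0.90 (SE 0.34) for Kcnf1, 1.36 (SE 0.55) for Kcnj4, -1.56 (SE 0.60) for Kcnj14 and -0.33 (SE 0.14) for Kcnk9, each with adjusted p = 0.989 in edgeR. For Kcnj4 it was 0.71 without E4-15 4, and for Kcnf1 0.61 without E4-10 2. For Kcnj14 it was -1.11 without E3-10 1, and for Kcnk9 -0.26 without E3-15 3. DESeq2 and limma-voom called 0 members in all 3 of these comparisons, with 12 and 7 members at an unadjusted p under 0.05 in the hindbrain-rich libraries, 1 and 0 in the others and 7 and 2 for the difference.

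**Figure D5:**
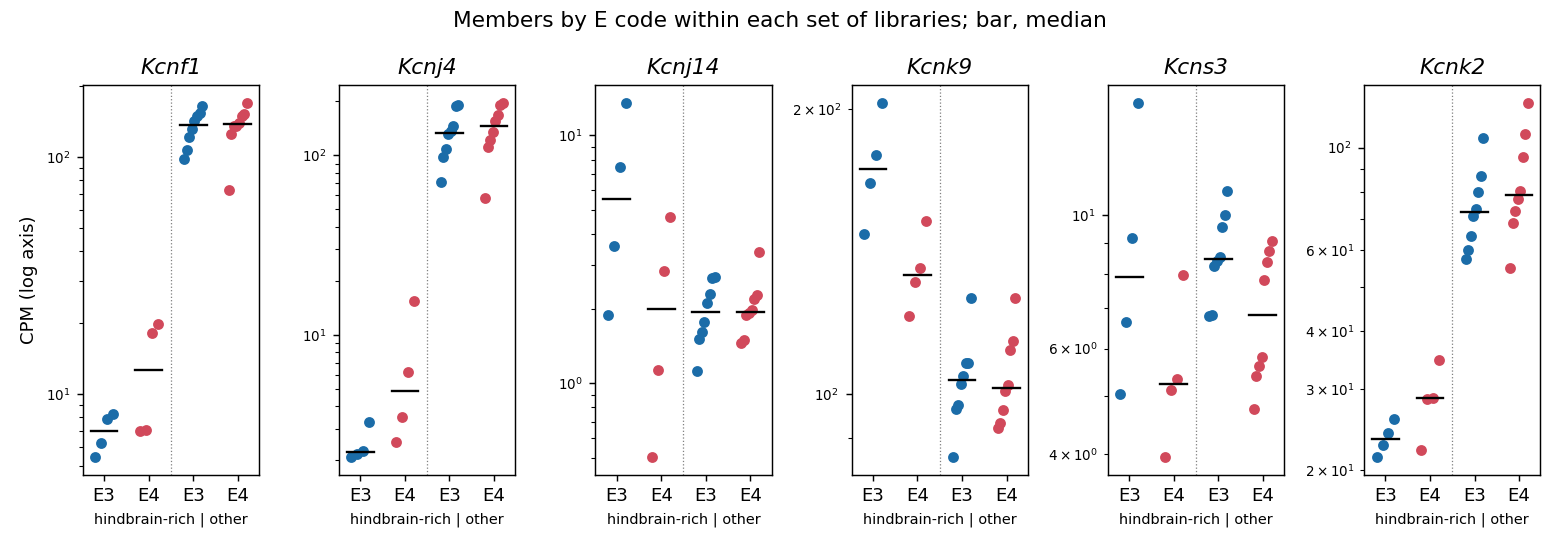
CPM per library (vertical axes, logarithmic) of 6 members by E code, in the hindbrain-rich libraries left of the dotted line (4 E3, 4 E4) and the others right of it (8 E3, 8 E4); bars are medians. In the hindbrain-rich libraries Kcnf1 and Kcnj4 reach higher in E4 and Kcnj14 and Kcnk9 in E3, with overlap in all 4, and none of the 6 passed the test.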

How the data were processed

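Mouse brain RNA was isolated with TRIzol, polyadenylated RNA was made into NEBNext Ultra libraries, and these were read on a NovaSeq instrument, per the labels' protocols. Reads were processed with HISAT2 2.1.0 and featureCounts 2.0.6 on mm39, per the submitters' processing notes; the annotation and strand setting are not given in the sources used here. The authors deposited unnormalized read counts for each gene symbol. Of counts from 1 to 19, an even value made up 62.6% to 70.8% by library, so many fragments appear to be counted as 2 reads. No gene lengths were used, so levels are not compared between genes.

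Columns were joined to libraries by the number in their labels. The analysis used R 4.3.3 and edgeR 4.0.16: filterByExpr over the 6 groups kept 20437 genes, with TMM factors, and the fit had 1 coefficient per group and a term for the 8 hindbrain-rich columns (17 residual degrees of freedom). CPM after the opening limit of 1 CPM are scaled to the column sum times the TMM factor. A second fit had 4 cells (E code by region set) and 2 time terms (18 residual degrees of freedom). P-values were adjusted by Benjamini-Hochberg over all genes in each comparison, and genes under 0.05 were called. The region difference has no p, because the 8 columns were recognised from these counts. SE is the absolute log2 difference over the root of F. The script was tested on simulated data. The members, lists and tests were chosen with earlier results of these data known. Named genes were, per subfamily, up to 3 members without overlap in each direction and the one nearest to 0, up to 4 with the smallest p per code comparison, and a set of known channels. Other members named, and library comparisons over them, were chosen after their values were seen. Values of some members and of 1 partner gene are counted in the totals but not reported here by name. No promoter coordinates were converted between builds.

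Alternatives were no region term, upper-quartile or RLE factors, all genes unfiltered, only genes at 1 CPM in 8 libraries, DESeq2 1.42.0, limma-voom (limma 3.58.1), the library number as a block, a term per set of 3 columns, titled month, adjusted p under 0.01, leaving out each of the 24 libraries, leaving out those with Hbb-bs above 100 CPM or Gh above 1000 CPM, and other rules for the members and the region comparison.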

Additional observations from a re-analysis of the deposited data

Results flagged for a closer look

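Among the 8 hindbrain-rich libraries, 49 members were checked for a library set apart from the rest by a gap large against the range (Dixon's test on log2 CPM at the 95% level), and 6 had one. Chance flags about 1 in 20. Of these 6, 5 involved E3-10 1, which was the highest for Kcna1 (767 CPM), Kcnd1 (25.1 CPM) and Kcnk13 (24.8 CPM) and the lowest for Kcnd2 (128 CPM) and Kcnma1 (169 CPM). The other was Kcne4, lowest in E3-05 2 at 0.796 CPM.

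Within groups of 4, after the region difference was taken out, 8 of 138 pairs of a member and a group had a library set apart. That is near the share of about 1 in 20 that chance flags. The 8 are listed as a description and are not read as a result. Relative to its group and region, Kcnc4 was high in E3-05 3 (120 CPM) and low in E3-10 4 (93.3 CPM). Kcng3 was high in E3-05 1 (16.6 CPM) and Kcnip4 high in E3-05 2 (142 CPM). Low values were those of Kcnj4 in E4-10 1 (111 CPM), Kcnk3 in E3-15 4 (29.3 CPM), Kcnn1 in E4-05 1 (13.3 CPM) and Kcns3 in E4-10 4 (4.76 CPM).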

How the results depend on the processing

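In each of the 10 comparisons of codes, the count of members called was 0 in edgeR and under every alternative run. With the library number as a replicate block it also stayed at 0 in all 10. The numbers do not pair the libraries: deviations of libraries that share a number had a median correlation of -0.01 over 60 pairs (lowest -0.38), and 3 libraries were closest to their own number. Of the differences of named members between codes, 1401 kept their direction and side of the threshold over the alternatives, and 3 reversed, all without the region term and from values that 1 library moved by over 1.5 times: Kcnj4 for E4 minus E3 at time code 15 (0.83 to -0.40; 0.10 without E4-15 4), Kcna4 for 10 minus 05 (0.25 to -0.0336; 0.16 without E4-05 3) and Kcnip2 for 10 minus 05 (0.42 to -0.0662; 0.24 without E3-10 1). The alternative itself leaves the region in the spread, and the coefficient of variation is then 40.8% against 22.5%. For the members named between codes, the main adjusted p was 0.609 or more with edgeR, and 24 alternatives each left out only 1 library. Keeping the side of the threshold could thus hardly fail, and the 1401 are not a check of these differences. Of 1908 region differences of members over the alternatives, 9 changed sign, all of them of Kcna6, Kcnk13, Kcnmb1 and Kcnq1. Leaving out each library in turn, 10 to 13 members lay wholly above and 19 to 26 wholly below, both highest without E3-10 1. Fewer libraries make it easier for the sets not to overlap, apart from changes in scaling. These counts could thus hardly fall and are not a check of the main ones. With RLE factors 9 lay wholly above. With 4 libraries a group, the standard error of a member at 1 time code was 0.22 at the median. That is not a limit of detection. Differences of several standard errors also went uncalled, such as 1.44 (SE 0.46) for Kcnj4 between E codes within the hindbrain-rich libraries. Low members such as Kcnq1 rest on few counts.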

Other observations

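Of 27 genes that work beside potassium channels, 26 were measured; Lrrc52 was left out by the filter on low counts. In the region comparison 1 lay wholly above (5.97% of all genes) and 0 wholly below (7.72% of all genes). Neither count is read as a result about the 26. Their median log2 difference was 0.07, against 0.04 over all genes tested. The 1 wholly above was Atp1b2, a subunit of the sodium pump in glia and neurons. It was at 1320 to 1922 CPM in the 8 hindbrain-rich libraries and 667 to 1262 CPM in the other 16 (0.94, SE 0.09). Dpp6 (0.03, SE 0.06) and Dpp10 (0.05, SE 0.07), partners of Kcnd channels, and Adam22 (0.07, SE 0.05), found with Kcna channels on axons, were nearly level. Lgi1, a secreted ligand of Adam22, had a difference of -0.75 (SE 0.10) with overlap. Abcc8 (0.86, SE 0.10) and Abcc9 (0.36, SE 0.08), the sulfonylurea receptors that join Kcnj11 and Kcnj8, were positive with overlap, as was Cntn2 (0.86, SE 0.10), an adhesion molecule at the Kcna clusters of axons. The subunits of large-conductance channels Lrrc38 (1.21, SE 0.16) and Lrrc55 (-1.26, SE 0.22) had opposite signs, both with overlap. Among the pacemaker channels, Hcn2 had a difference of 0.40 (SE 0.13) and Hcn3 one of -0.37 (SE 0.14), both with overlap. Of the 26, 0 were called between E codes or time codes by edgeR, DESeq2 or limma-voom, with 0 to 3 at an unadjusted p under 0.05 per comparison in edgeR. Over all genes, edgeR called 0% to 0.0538% per comparison, and 1.64% to 7.72% had such an unadjusted p.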
